A study of Sus scrofa with 24 samples.

Results

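FHL1, FHL2 and FHL3 are LIM-only proteins, and their array probes were chosen by gene name: a probe belonged to the set where its name in the scanner files, or the symbol of its RefSeq accession, was one of these genes. The rule found 18 of 43603 probes, 16 for FHL1 and 2 for FHL3. These are 2 of the 5586 genes named by a probe. No probe matched FHL2, which is not analysed here. FHL1 was itself chosen for its difference between RFIneg and RFIpl on these arrays, so that difference is given as a description and without a test.

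Subcutaneous adipose tissue was taken from 24 pigs of 115 kg body weight, 8 in each of 3 groups, and each RNA was labelled with Cy3 and hybridised to its own Agilent array. RFIneg pigs came from a line with low residual feed intake (feed eaten beyond what growth and maintenance predict) and ate freely. RFIpl pigs came from the high line and also ate freely, while RFIplR pigs of the high line were held to the feeding level of RFIneg. RFIneg against RFIplR therefore compares lines at one feeding level, RFIplR against RFIpl compares feeding levels within the high line, and RFIneg against RFIpl differs in both.

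LIM domains are zinc-binding folds held by cysteine and histidine residues, and they bind other proteins rather than DNA. FHL1 is abundant in skeletal and cardiac muscle, where it is found at the sarcomere. FHL3 is also known from skeletal muscle, and FHL2 from the heart. The family members act as scaffolds for signalling proteins and transcription factors.

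Values are log2 spot intensity relative to the 75th percentile of the same array, so a difference of 1 is a doubling of signal. The arrays fell into 17 bright ones, with 75th percentiles of 414 to 663, and 7 dim ones, with 69.4 to 94.4; 2 RFIneg, 2 RFIpl and 3 RFIplR arrays were dim. The share of probes above background ranged from 43.1 to 79.9% across arrays. ADIPOQ, the adipocyte hormone adiponectin, lay between 7.11 and 8.41 on all arrays. In tissue RNA, fewer cells of a type and less RNA per cell cannot be told apart.

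The FHL1 probes are 60 bases long and start between base 987 and base 2491 of the transcript, in the numbering of the scanner files. Without array brightness in the fit, the probes that differed most between RFIplR and RFIpl were the 2 nearest the 5′ end. These are A_72_P405033 (start 987) and A_72_P529970 (start 1159). With brightness class as a block, A_72_P517420 (start 1198), at 1.35, lay above A_72_P529970, at 1.33. The 2 most 5′ probes are shown with the more 5′ FHL3 probe, A_72_P547126 (start 807). Capitals mark pairs of cysteine codons (TGC or TGT) set 6 bases apart, the spacing of zinc-binding cysteines in LIM domains, and a TAA in the second probe.
A_72_P405033: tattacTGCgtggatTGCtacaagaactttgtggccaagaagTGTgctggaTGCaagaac
A_72_P529970: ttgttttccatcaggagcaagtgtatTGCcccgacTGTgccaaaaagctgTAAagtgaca
A_72_P547126: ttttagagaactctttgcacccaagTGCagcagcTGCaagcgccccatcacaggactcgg

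Such a pair was present on the given strand in 4 of the 18 FHL probes and in 7.57% of all 43603 probes, and on either strand in 13.2% of all probes. The reading frame of FHL1 was assumed, not measured. All 3 frames of the most 5′ probe are open, and the 4 cysteine pairs in FHL1 probes do not share 1 frame, so neither of these rules could set it. After both had failed, the frame of the 2 pairs in the most 5′ probe was used, which holds 3 of the 4 pairs. In that assumed frame the first stop codon is the TAA at base 1209, which 3 probes span, with 1 probe before it and 12 after it. No comparison between groups below rests on the frame.

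FHL1 was higher in both RFIneg and RFIplR than in RFIpl on all 16 probes, and the first of these differences is the one that chose the gene. The probe with the highest mean, A_72_P592749 (start 2448), had a lowest value of 6.17, a median of 7.18 and a highest value of 7.34 in RFIneg. In RFIpl its lowest value was 4.85, its median 6.05 and its highest 7.25. In RFIplR its lowest value was 6.64, its median 7.15 and its highest 7.57. RFIpl spread widest, and its highest array reached into both other groups. Group means were 6.96 ± 0.43, 6.08 ± 0.82 and 7.07 ± 0.34 (SD, n = 8) for RFIneg, RFIpl and RFIplR. The order was thus RFIplR, RFIneg, RFIpl, and RFIplR and RFIneg did not differ beyond their spread.

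**Figure D1:**
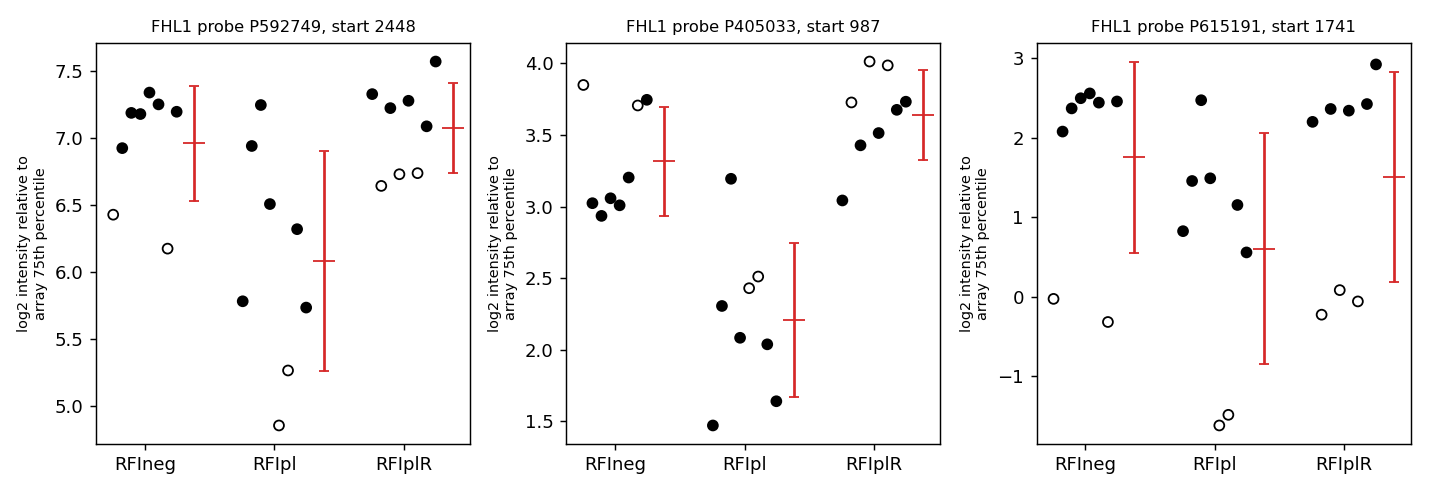
Each point is 1 array: log2 intensity of 3 FHL1 probes relative to the array's 75th percentile, by group, with replicates from left to right; filled points are bright arrays, open points dim arrays, and red bars the mean and SD of 8 arrays. RFIpl has the lowest mean on all 3 probes, and the dim arrays lie low for A_72_P615191 but not for A_72_P405033.

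Within the high line, feed restriction went with higher FHL1. Over the 16 probes RFIplR minus RFIpl ran from 0.61 to 1.43 with a median of 1.07, where the median over all 28601 probes kept was 0.01. At an adjusted p under 0.05 in limma, 6 of the 16 probes were higher in RFIplR, against 0.182% of all probes tested. The probes share a transcript and in part their bases, and the RFIpl arrays are those of the comparison that chose FHL1. Neither the count nor any FHL1 p-value of RFIplR minus RFIpl, here or below, is therefore independent evidence.

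The largest difference was that of A_72_P405033. It ranged from 1.47 to 3.19 with a median of 2.19 in RFIpl, and from 3.04 to 4.01 with a median of 3.70 in RFIplR. Only the highest RFIpl array, RFIpl 3, entered the RFIplR range. The difference was 1.43 (SE 0.22), a 2.70-fold higher signal, with an adjusted p of 0.0076 in limma. For A_72_P529970, at 1.39 (SE 0.22) and an adjusted p of 0.0118 in limma, the groups did not overlap: RFIpl ended at 2.92 and RFIplR began at 3.03. This was the single FHL1 probe of 16 without overlap, against 0.15% of all probes.

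The lead probe A_72_P592749 was 0.99 (SE 0.28) higher in RFIplR and did not pass the threshold across all probes, with an adjusted p of 0.144 in limma. All 8 RFIplR arrays lay above the RFIpl mean. An exact two-sided permutation test of this probe alone gave p = 0.007, or 0.0272 after Benjamini-Hochberg adjustment over 5 such tests. The test reuses the RFIpl arrays of the contrast that chose FHL1, so it is not independent evidence. Without RFIpl 3 the difference was 1.16 with an adjusted p of 0.0331 in limma, and 9 probes passed in place of 6. Without RFIpl 1 alone 3 probes passed. No FHL1 probe passed without RFIpl 1 and 2, where the lead probe's difference was 1.09, or without RFIpl 7 and 8, where it was 0.98. Calls over all 28601 probes moved as well, from 85 with all arrays to 296 without RFIpl 3 and 22 without RFIpl 1. They fell to 1 without RFIpl 1 and 2 and to 0 without RFIpl 7 and 8. Within the 5 slides that held both groups the lead probe was higher in RFIplR on all 5, by 0.37 to 2.29. Both ends of that range come from the 2 slides on which bright and dim arrays were compared, and the other 3 slides gave 0.39 to 1.31.

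Between RFIneg and RFIpl, the contrast that chose the gene, the 16 probes ran from 0.62 to 1.15 with a median of 1.04. The lead probe differed by 0.88 (SE 0.28), a 1.84-fold signal. On the 5 slides with both groups the lead probe was higher in RFIneg on all 5, by 0.25 to 1.57.

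At one feeding level the lines gave similar FHL1 values, with intervals that allow differences in both directions. RFIneg minus RFIplR ran from -0.43 to 0.25 over the 16 probes with a median of -0.03. None of the 16 passed in limma, and neither did any of the 28601 probes (0% called), of which 605 had an unadjusted p under 0.05. The lead probe's difference was -0.11 (95% interval -0.70 to 0.47; adjusted p 0.999 in limma; exact two-sided permutation p = 0.562). The RFIneg arrays are those of the comparison that chose FHL1, so these FHL1 p-values are not independent evidence either. The direction depended on scaling: 8 of 16 probes were above 0 as given, 13 with normexp background correction, 11 with median scaling, 3 with quantile scaling and 0 with brightness class as a block.

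**Figure D2:**
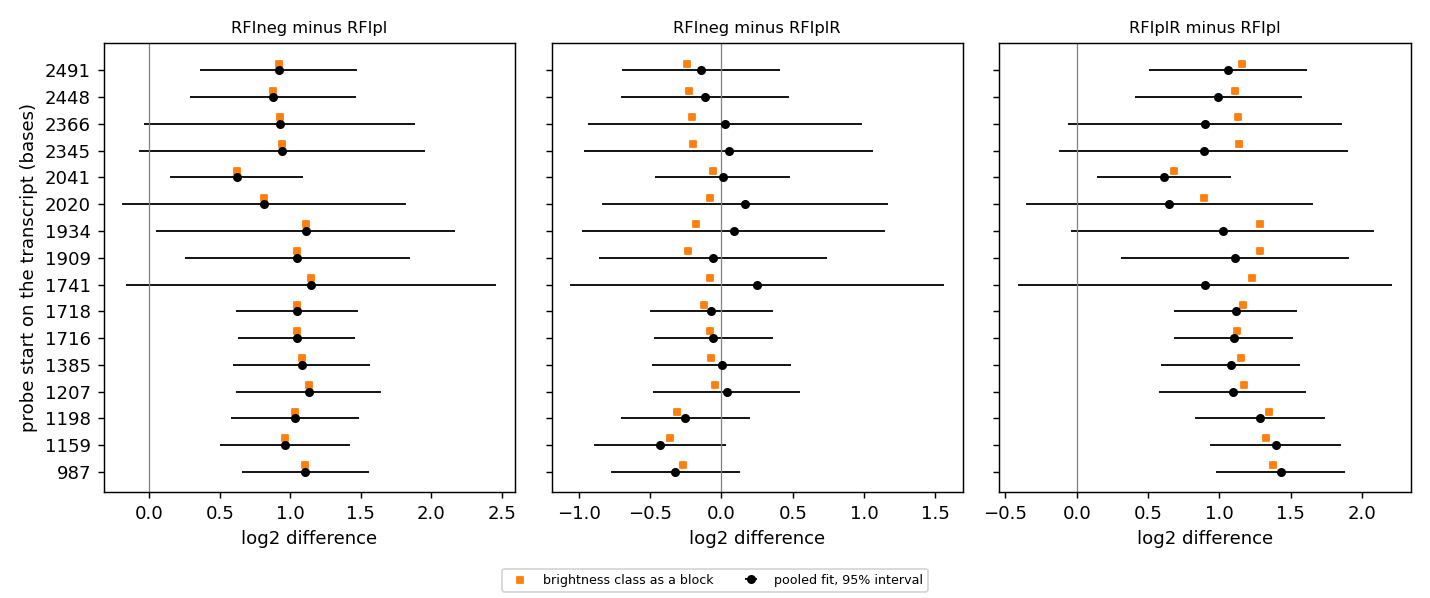
Log2 differences of the 16 FHL1 probes (vertical axis, probe start on the transcript in bases) in the 3 comparisons: black points with 95% intervals from the pooled fit, orange squares with brightness class as a block. All points of both comparisons with RFIpl lie above 0, between 0.61 and 1.43. For RFIneg minus RFIplR the black points lie on both sides of 0, and the orange squares lie below it, between -0.36 and -0.04.

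The FHL1 probes differed from each other in level and also in how they moved with array brightness. The shift from bright to dim arrays ran from -2.64 (SE 0.17) for A_72_P615191 (start 1741) to 0.53 (SE 0.16) for A_72_P529970. Over all kept probes this shift had a 5th percentile of -2.30 and a 95th of 3.24. A_72_P615191 ranged from -1.62 to 2.47 in RFIpl and from -0.23 to 2.92 in RFIplR, with its dim arrays lowest in each group.

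Correlations between FHL1 probes over the 24 arrays ran from 0.058 to 0.996 with a median of 0.83. With the mean of each brightness class removed they ran from 0.80 to 0.995, with a median of 0.95. These are descriptions over the same arrays of probes to one transcript. The residual SD fell from between 0.38 and 1.33 to between 0.35 and 0.40 when brightness class was a block.

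With that block all 16 probes passed in limma as higher in RFIplR than in RFIpl, against 5.85% of all probes. The lead probe then differed by 1.11 between RFIplR and RFIpl (adjusted p 0.000876 in limma). Among bright arrays alone it averaged 6.42 ± 0.61 (SD, n = 6) in RFIpl and 7.30 ± 0.18 (SD, n = 5) in RFIplR. Among dim arrays it averaged 5.06 in the 2 of RFIpl and 6.70 in the 3 of RFIplR. Both classes thus had the lower mean in RFIpl.

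**Figure D3:**
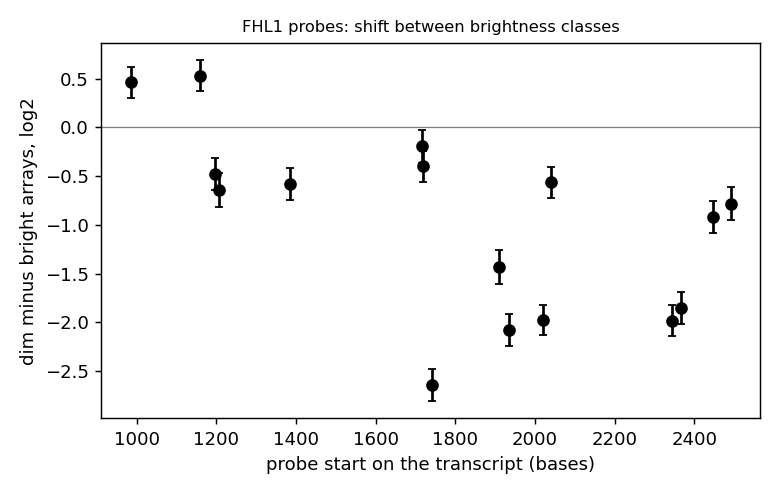
Shift of each FHL1 probe from bright to dim arrays (log2, with SE) against its start on the transcript. The 2 most 5′ probes lie above 0, at 0.46 and 0.53, and the other 14 below it, down to -2.64.

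The 5 most 5′ probes list 3 Ensembl transcripts each and the other 11 list 2. The mean of the 5 minus the mean of the 11, a split added after the data were seen, was 0.20 higher in RFIplR than in RFIpl among bright arrays. The exact two-sided permutation p was 0.0216, and 0.13 after Benjamini-Hochberg adjustment over 6 tests, so it did not pass.

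FHL3 showed no call in any comparison on either probe, where 0.206% of all probes were called in either direction in RFIneg minus RFIpl and 0.297% in RFIplR minus RFIpl. Its lead probe A_72_P223652 (start 1354) had a lowest value of 1.98, a median of 2.53 and a highest of 3.14 in RFIneg. In RFIpl these were 2.50, 3.12 and 3.84, and in RFIplR 2.48, 2.90 and 3.18. The groups overlapped, with RFIpl 2 the highest array. RFIneg minus RFIpl was -0.56 (SE 0.19; adjusted p 0.33 in limma), with 1 of 8 RFIneg arrays above the RFIpl mean. The exact two-sided permutation p of this probe was 0.0109, or 0.0272 adjusted over the 5 tests.

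With brightness class as a block the adjusted p of FHL3 was 0.0299 in limma, against 6.63% of all probes called in either direction. It was 0.0478 without RFIpl 2 and 0.0848 without RFIpl 1 and 2. The difference was -0.72 in bright arrays only, -0.09 in dim arrays only and -0.10 on scan day 2 only, with no call in any of these. Neither RFIneg minus RFIplR, at -0.29 (adjusted p 0.999), nor RFIplR minus RFIpl, at -0.27 (adjusted p 0.906), passed in limma. With the block RFIplR minus RFIpl was -0.31 (adjusted p 0.202 in limma), where 10.4% of all probes were called in either direction. On the 5 slides holding both groups FHL3 was lower in RFIneg than in RFIpl on all 5, by 0.02 to 1.36.

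The other FHL3 probe, A_72_P547126, was close to background, and was well above it on 6 RFIneg, 8 RFIpl and 5 RFIplR arrays. It differed by -0.57 (SE 0.22; adjusted p 0.513 in limma) between RFIneg and RFIpl. Outside the rule, A_72_P436644 is described in the files as similar to FHL3 and matched A_72_P223652 at 39 of 41 overlapping bases. Its RFIneg minus RFIpl difference was -0.67 (SE 0.40; adjusted p 0.95 in limma). With brightness class as a block the adjusted p in limma was 0.0284 for A_72_P436644 and 0.0509 for A_72_P547126. Of all probes 6.63% were then called in either direction.

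**Figure D4:**
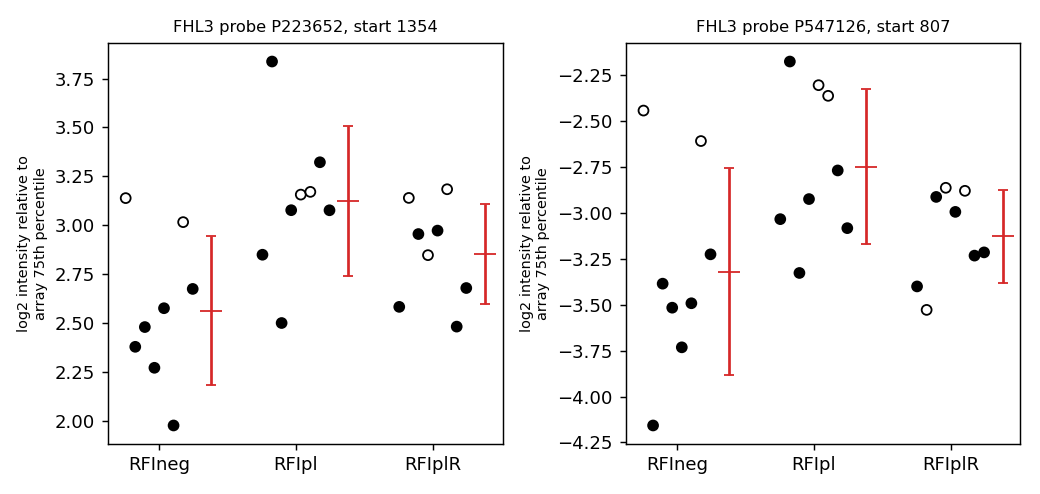
Both FHL3 probes in each array, as log2 intensity relative to the array's 75th percentile; filled points are bright arrays, open points dim arrays, and red bars the mean and SD of 8 arrays. The groups overlap on both probes, and RFIneg has the lowest mean, 2.56 for A_72_P223652 and -3.32 for A_72_P547126.

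FHL1 and FHL3 are muscle genes, and skeletal muscle markers were uneven between arrays. TNNT3, fast troponin T, reached 7.19 in RFIpl 2 and 1.72 in RFIpl 1, and CKM, muscle creatine kinase, reached 7.60 in RFIpl 2. The summed level of the 15 of 28 muscle markers kept ran from 3.83 to 4.85 in RFIneg, from 4.01 to 10.74 in RFIpl and from 3.81 to 5.13 in RFIplR. None of the 15 passed in any comparison, while 0.206% of all probes were called in RFIneg minus RFIpl and 0.297% in RFIplR minus RFIpl. Most were still higher on average in RFIpl. Their median difference was -1.07 in RFIneg minus RFIpl, with 0 of 15 above 0, and -1.37 in RFIplR minus RFIpl, with 1 above 0. The medians over all kept probes were -0.01 and 0.01. TNNT3, TNNT1, TNNC1, TNNI1, CASQ1 and ACTN2 were kept only through RFIpl, the higher group of both comparisons. The direction counts and medians of the markers are thus partly set by the filter. The RFIpl means include RFIpl 2, and the median summed level was 4.19 in RFIneg, 4.29 in RFIpl and 4.23 in RFIplR.

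The FHL1 lead probe without RFIpl 1 and 2 was 0.97 higher in RFIneg and 1.09 higher in RFIplR than in RFIpl. The FHL3 difference between RFIneg and RFIpl was -0.49 without them. SFN, the keratinocyte protein stratifin, was at 5.27 in RFIpl 7 and 3.73 in RFIpl 8, and at most -0.90 in the other groups. None of the 3 of 10 keratinocyte, 6 of 7 endothelial, 3 of 7 macrophage and 4 of 6 fibroblast markers kept passed in any comparison. With brightness class as a block VWF rose in RFIneg, PECAM1 and CDH5 rose and KDR fell in RFIplR, and COL1A2 fell in both, each against RFIpl. The endothelial calls are thus 1 of 6 and 3 of 6 and the fibroblast calls 1 of 4 in each comparison, against 6.63% of all probes in RFIneg minus RFIpl and 10.4% in RFIplR minus RFIpl, and no keratinocyte or macrophage marker was called. The part of these cells in the FHL values was not tested.

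**Figure D5:**
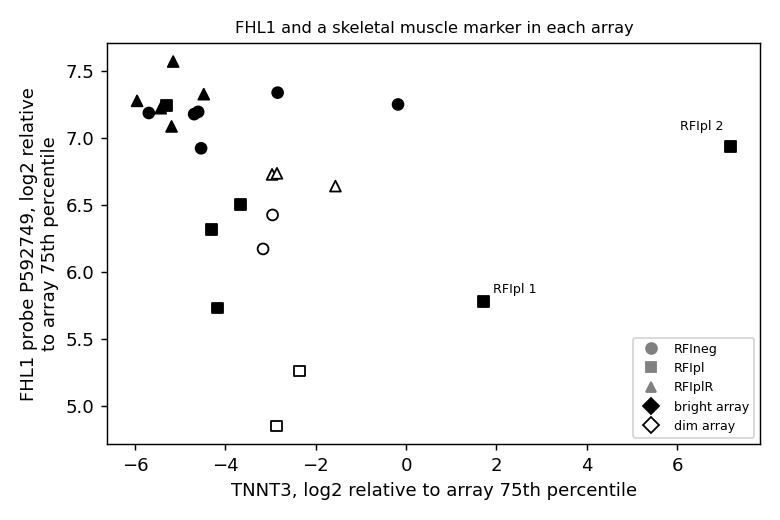
FHL1 probe A_72_P592749 against the muscle marker TNNT3, both as log2 intensity relative to the array's 75th percentile, 1 point per array; shapes are groups, and filled and open points bright and dim arrays. RFIpl 1 and RFIpl 2 stand apart on TNNT3, at 1.72 and 7.19. TNNT3 passed the background filter only through RFIpl.

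Of 52 other LIM domain genes 12 were kept, and none rose or fell in any comparison. The median difference was 0.05 in RFIneg minus RFIpl and -0.02 in RFIplR minus RFIpl. The smallest p-values in RFIplR minus RFIpl were those of MICAL1, an actin-oxidising enzyme, at -0.52 (SE 0.18; adjusted p 0.266 in limma), and CSRP2, a smooth muscle LIM protein, at -1.16 (SE 0.52; adjusted p 0.544). LMO3, a LIM-only transcription cofactor, gave -0.92 (SE 0.38; adjusted p 0.568) in RFIneg minus RFIpl. It was close to background, well above it on 3 RFIneg, 6 RFIpl and 5 RFIplR arrays. LMO3 was thus kept only through RFIpl, the higher group of this comparison. With brightness class as a block LMCD1 rose and CSRP2 fell in RFIneg and RFIplR against RFIpl, and MICAL1 fell in RFIplR. These are 2 of 12 genes in RFIneg minus RFIpl and 3 of 12 in RFIplR minus RFIpl, where 6.63 and 10.4% of all probes were called in either direction.

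Of 26 genes for reported binding partners of FHL proteins 13 were kept, and none passed. ITGA5, an integrin subunit, was 0.34 (SE 0.18; adjusted p 0.813 in limma) higher in RFIneg than in RFIpl, and SMAD4, a mediator of TGF-beta signalling, was at -0.41 (SE 0.21; adjusted p 0.687) in RFIplR minus RFIpl. With brightness class as a block SIRT1, a deacetylase, rose and SMAD4 fell in RFIplR, 2 of 13 genes where 10.4% of all probes were called. All 9 smooth muscle and SRF target genes measured of 14 also missed the threshold, with medians of -0.09 and 0.01. MYL9, a myosin light chain, was at 0.45 (SE 0.25; adjusted p 0.75) in RFIplR minus RFIpl.

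All 12 adipocyte markers were kept, and none passed. AQP7, the glycerol channel, was at 0.79 (SE 0.21; adjusted p 0.134 in limma) in RFIneg minus RFIpl and at 0.57 (SE 0.21; adjusted p 0.334) in RFIplR minus RFIpl. With brightness class as a block 5 of 12 rose in RFIneg and 3 of 12 in RFIplR against RFIpl, where 4.33 and 5.85% of all probes were called higher.

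The genes whose pattern was most like that of the FHL1 lead probe were ranked over 24 arrays among 4408 genes, after the mean of each brightness class was removed. MYOC, the secreted protein myocilin, came first at r = 0.93 (0.94 over the 17 bright arrays), followed by LOC100156657 and MATN2 at 0.90, PIK3IP1 and TMEM59 at 0.88 and ALOX5AP at 0.87. The lowest were CNOT9 at -0.90 and SH2B3 and CYP4F2 at -0.88. These correlations are descriptions over arrays that share scaling. Group means were not removed, so a difference between groups that a gene shares with FHL1 also enters its r. MYOC averaged 7.08 ± 0.50, 5.22 ± 1.06 and 6.96 ± 0.33 (SD, n = 8) in RFIneg, RFIpl and RFIplR.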

How the data were processed

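Per the file headers, the scanner files give spot intensity from Feature Extraction version 10.7.3.1. The submitters' processing notes name R 2.10.0. The authors' deposited table holds log2 values, and these matched the log2 scanner values after subtracting the median of the array. Here log2 of the processed intensity minus the log2 of the array's 75th percentile was used, without non-uniform spots, and replicate spots were averaged per probe. Probes well above background on at least 6 arrays of a group, with at most 6 missing, were kept (28601 of 43603), and all 18 FHL probes passed. Probe names came from the files or from RefSeq (Sscrofa11.1 table, names only); 12458 probes had 1 symbol. Groups were compared with limma 3.58.1 in R 4.3.3 over all kept probes and 3 groups, with Benjamini-Hochberg adjustment, after a check on simulated data. Brightness classes, slides and scan days were alternatives. Slides and scan days came from the file headers. Brightness class is not in the headers and was set from the data, at the largest gap in log2 of the arrays' 75th percentiles. The members and lists were chosen with earlier results of these data known. Named genes are the FHL probes, from each list the genes past 0.05 or with the smallest p, and the 6 highest and 3 lowest correlations with the FHL1 lead probe. Of several probes of a list gene, the one with the highest mean was used. For the correlations it was the probe with the most extreme r. From the partner, smooth muscle, muscle and adipocyte lists, examples are given. The array number limits the precision.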

Additional observations from a re-analysis of the deposited data

Results flagged for a closer look

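RFIpl 3 stood apart within RFIpl on 2 FHL1 probes, among 57 group checks, of which chance flags about 1 in 20. On A_72_P561029 it was at 2.95 and the next array at 1.85, and on A_72_P637276 it was at 3.86 and the next at 2.73. It was the highest RFIpl array on all 16 FHL1 probes, which share a transcript.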

How the results depend on the processing

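Of the differences, FHL1 RFIneg minus RFIpl kept its direction under all 48 alternatives (0.56 to 1.24). It is the contrast that chose FHL1, so this is a description and not support. Several alternatives, such as leaving out an RFIplR array, could not move it from 0.88. FHL3 RFIplR minus RFIpl also kept its direction under all 48, without passing the threshold. FHL1 RFIneg minus RFIplR turned to 0.23 with normexp background correction. FHL3 RFIneg minus RFIplR turned to 0.0203 in dim arrays only and to 0.11 on scan day 2 only. FHL1 RFIplR minus RFIpl passed the threshold in limma with brightness class as a block (1.11), slide and brightness as blocks (1.13), bright arrays only (0.88) and array weights (1.07), and over single arrays left out it ran from 0.82 to 1.16 (adjusted p 0.0331 to 0.289). FHL3 RFIneg minus RFIpl passed with brightness class as a block (-0.56) and array weights (-0.65), and ran from -0.72 in bright arrays only to -0.09 in dim arrays only (adjusted p 0.0618 and 0.909). Brightness as a block with arrays left out was added after seeing the data: FHL1 RFIplR minus RFIpl was 1.24 without RFIpl 3, 1.19 without RFIpl 2 and 1.12 without RFIpl 1 and 2, and FHL3 RFIneg minus RFIpl was -0.64 without RFIpl 3 and -0.44 without RFIpl 2. The count of FHL1 probes called in RFIplR minus RFIpl, 6 as reported, was also taken under each alternative after seeing the data. It was 16 with brightness as a block (also without RFIpl 3, RFIpl 2 or RFIpl 1 and 2), in bright arrays only and with array weights, and 15 with slide and brightness as blocks. Of all probes tested, 944 were called in bright arrays only, 2757 with array weights and 1694 with slide and brightness as blocks. With brightness as a block 2963 were called, and 1900 to 3671 with those arrays left out. The FHL1 count was 2 with slide as a block, with 2 groups only and with median scaling, where 25, 26 and 20 of all probes were called. It was 0 with the replicate block, in dim arrays only, on scan day 1 or 2 only, with normexp, without RFIpl 1 and 2 and without RFIpl 7 and 8. Calls over all probes were then 2 with the replicate block, 4 with normexp, 1 without RFIpl 1 and 2, and 0 in the others. With single arrays left out the FHL1 count ran from 3 without RFIpl 1 to 9 without RFIpl 3, where 22 and 296 of all probes were called. Replicate numbers did not pair the arrays: same-numbered arrays correlated at -0.82 to 0.88, and 0 of 24 correlated best with its own number. With the replicate block FHL1 RFIplR minus RFIpl was 0.99 (adjusted p 0.326), FHL1 RFIneg minus RFIplR -0.11, and FHL3 -0.56, -0.29 and -0.27, with no call. The causes were not tested. The FHL2 alternatives gave no value, since no probe matched.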
